A study of Mus musculus with 24 samples.

Results

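Fatty acid oxidation was examined through 34 genes, its enzymes and known targets of the nuclear receptor PPAR-alpha, of 19015 genes in the deposited table. All 34 had 1 row each, found by symbol. The set was chosen with earlier results of these data known. They comprise 5 genes of the carnitine shuttle, 4 acyl-CoA dehydrogenases, 4 genes of the later steps of the spiral, 4 enzymes for unsaturated fatty acids, 3 electron transfer flavoproteins, 4 peroxisomal genes, 2 microsomal omega-hydroxylases, 3 acyl-CoA thioesterases, the ketone body enzyme Bdh1, and the receptor Ppara with 3 other targets. RNA was sequenced from inguinal adipose tissue (IAT, a white fat depot that lies beside the mammary gland and lymph node in females), liver, brain and dorsal brown adipose tissue (BAT). Every mouse was female and 12 weeks old, and was either wildtype (WT) or a knockout (KO) of Prxl2a, a gene for a protein of the peroxiredoxin-like family. There were 8 groups of tissue and genotype with 3 libraries apiece, 24 in all. Neither the strain nor the making of the knockout is given in the sources used here. All groups shared perfusion with PBS, which clears blood from the vessels, before the tissues were taken. The design text gives 3 mice per group and the labels do not tie libraries to mice, so p-values measure the spread between libraries, and tissues may share mice.

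Long-chain fatty acids enter mitochondria as carnitine esters, made by carnitine palmitoyltransferase 1 at the outer membrane and turned back into acyl-CoA by Cpt2 inside. Each turn of the spiral then removes acetyl-CoA in 4 steps, and electrons leave through the electron transfer flavoproteins. Brown fat burns fatty acids to make heat, liver turns them into ketone bodies during fasting, and the brain relies mainly on glucose and ketone bodies. PPAR-alpha binds fatty acids and, with the receptor RXR, switches on many of these genes in liver and brown fat. Peroxisomes shorten very long chains, and the Cyp4a enzymes of the endoplasmic reticulum hydroxylate the far end of the chain.

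The lowest library total was 12327459 counts, in BAT, and the highest was 18257788, in liver. Prxl2a checked the genotype labels: in CPM, counts scaled to a common library size, the KO libraries stood at 9.48 to 23.7 against 322 to 506 in WT in IAT, at 19.0 to 25.8 against 467 to 502 in BAT, at 5.35 to 6.35 against 84.0 to 119 in brain, and at 0.920 to 2.09 against 69.8 to 88.6 in liver. The fall passed edgeR's test in BAT, brain and liver, and in IAT it had an edgeR adjusted p of 0.0912. The tissue labels were checked with marker lists, each summed in TPM, the share of transcripts corrected for their length. Adipocyte markers summed to 19456 to 47398 TPM in IAT, brown adipocyte markers to 6252 to 9815 TPM in BAT, neuron markers to 6033 to 7745 TPM in brain and hepatocyte markers to 136061 to 161325 TPM in liver. The IAT libraries held other cells: lymphocyte markers summed to 2847 TPM in KO replicate 1 and 1409 TPM in KO replicate 3 against 11.01 to 34.2 TPM in the other 4. Skeletal muscle markers summed to 2047 and 7132 TPM in IAT WT replicates 1 and 2 against 63.4 to 149 TPM in the other 4, and to 3046 TPM in BAT WT replicate 1 against 160 to 316 TPM in the other 5 BAT libraries. Macrophage markers summed to 2264, 6301 and 8083 TPM in the IAT WT libraries and 3105, 1472 and 2284 TPM in KO.

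IAT KO replicate 3 was not shown to be a separate sample. Its levels lay between those of KO replicates 1 and 2 for 83.8% of 13924 genes with at least 30 counts in those 2 libraries, and for all 30 members among them, against 7.93% to 47.3% of genes for the other 23 libraries within their own groups. Its counts were best matched by 50% of replicate 1 and 50% of replicate 2, with a chi-square per degree of freedom of 1.77, near counting error, against 11.5 to 105 for the best mix of the other libraries. Its lymphocyte sum of 1409 TPM compares with a mean of 1429 TPM for replicates 1 and 2, and its adipocyte sum of 33351 TPM with 33427 TPM. How this library came about was not tested. The IAT results count it as a separate library unless stated, so their tests may rest on fewer than 3 separate KO samples, with intervals too narrow. Values without it are given for the members' median and counts, for Bdh1 and for the interaction test. Other IAT comparisons of KO with WT, such as the intervals and those of Cpt1b and Vnn1, are given only with it.

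Among the WT libraries, the summed level of the oxidation genes was highest in brown fat and lowest in brain. The 20 mitochondrial enzymes are those of the shuttle, dehydrogenases, later steps, unsaturated chains and flavoproteins. Their sums overlapped between IAT (5747, 4499 and 3916 TPM) and liver (4513, 4964 and 4962 TPM). The 34 genes made up 3.15% to 3.50% of all TPM in BAT, 0.646% to 0.747% in liver, 0.423% to 0.617% in IAT and 0.0936% to 0.106% in brain. In TPM, used here for all levels, 24 genes were highest in BAT, 10 in liver and none in IAT or brain. All 34 differed between the 4 tissues in edgeR's quasi-likelihood F-test on counts (adjusted p under 0.05), where 96.1% of all genes tested did. The plot of levels shows most mitochondrial enzymes of BAT standing apart on the right, and the Cyp4a pair far apart between liver and the other tissues. The exceptions were Cpt1a, lowest in BAT, and Eci2, at 274 TPM in BAT and 229 TPM in liver on average.

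**Figure D1:**
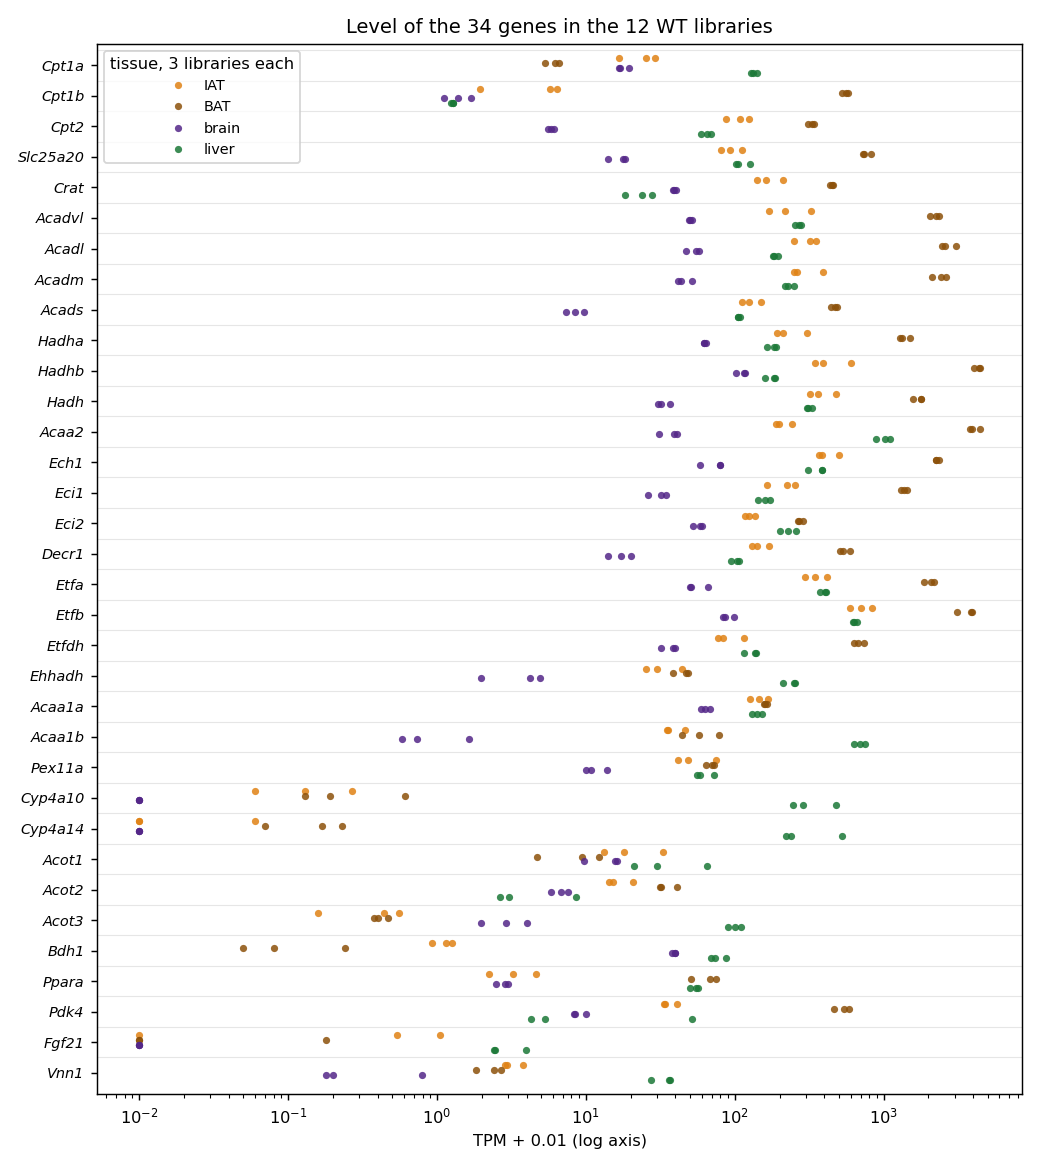
Level of each of the 34 genes in the 12 WT libraries, as TPM + 0.01 on a log axis, 1 point per library, coloured by tissue. Most mitochondrial enzymes lie highest in BAT, while Cyp4a10, Cyp4a14, Acot3, Ehhadh and Acaa1b lie highest in liver; points at the left edge are values of 0.

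Pairs of tissues were compared in the same fit. BAT exceeded IAT for 26 members (26.7% of all genes were called higher in BAT), and IAT exceeded BAT for 2, Cpt1a and Bdh1 (30.2% of all genes). BAT exceeded brain for 29 (38.7% of all genes) and brain exceeded BAT for 2, Bdh1 and Acot3 (40.5%). Liver exceeded brain for all 34 (39.5%), with none the other way (42.7%). IAT exceeded brain for 30 (39.9%), and brain exceeded IAT for Bdh1 and Acot3 (40.1%). BAT exceeded liver for 20 (36% of all genes) and liver exceeded BAT for 13 (29.7%), with Ppara not called.

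The comparison of liver with IAT depended on the scale. On normalised counts liver exceeded IAT for 29 members (32% of all genes) and IAT exceeded liver for 1, Crat (37.7% of all genes). On log2(TPM + 1), 12 of 33 were called higher in liver (11.5% of all genes) and 11 higher in IAT (73.6% of all genes). Between these scales the median over all genes, liver against IAT, went from -0.13 to -0.92 on the log2 scale, and the members' median went from 1.34 to 0.17. Relative to the median gene the members were thus on the liver side on both scales, but for single enzymes the order of liver and IAT is not settled. The shift of all genes was larger for liver against brain, from -0.09 to -1.61, where on log2(TPM + 1) 29 of 33 members were still called higher in liver (14.9% of all genes) and 1 in brain (75.3% of all genes).

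The carnitine shuttle opens with 2 isoforms of carnitine palmitoyltransferase 1, the step that malonyl-CoA inhibits, and they divided the tissues between them. Cpt1a (gene 12894, GRCm38.p6 chromosome 19, 3322326 to 3385735) stood at 132, 129 and 141 TPM in the WT liver libraries, at 16.7, 25.3 and 29.0 TPM in IAT, at 19.6, 16.9 and 16.7 TPM in brain, and at 6.15, 5.27 and 6.62 TPM in BAT. Liver lay above every other library, and IAT and brain overlapped in TPM. On normalised counts liver exceeded IAT by a log2 difference of 3.68 (SE 0.19, edgeR adjusted p = 1.61e-08), and brain and BAT were not called different (0.38, SE 0.18, edgeR adjusted p = 0.0677).

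Cpt1b (gene 12895, chromosome 15, 89416405 to 89425862), the isoform of muscle and brown fat, ran the other way. It stood at 557, 573 and 524 TPM in BAT, 5.74, 6.35 and 1.94 TPM in IAT, 1.10, 1.38 and 1.69 TPM in brain, and 1.27, 1.24 and 1.28 TPM in liver. BAT exceeded IAT by a log2 difference of 7.32 (SE 0.37, edgeR adjusted p = 1.40e-07). The higher IAT values were those of WT replicates 1 and 2, the libraries rich in muscle transcripts; their part in the IAT level was not tested. Brain and liver overlapped in TPM, while on normalised counts liver lay 1.78 above brain (SE 0.40, edgeR adjusted p = 0.00149). The TPM ratio of Cpt1b to Cpt1a averaged 92.8 in BAT (SD 14.9, n = 3), 0.221 in IAT (SD 0.141), 0.0796 in brain (SD 0.0225) and 0.00944 in liver (SD 0.000304).

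The rest of the shuttle followed brown fat. Slc25a20, the translocase that carries acylcarnitines across the inner membrane, averaged 762 TPM in BAT (SD 54.0, n = 3), 111 TPM in liver (SD 13.0), 94.8 TPM in IAT (SD 15.6) and 16.7 TPM in brain (SD 2.36). Cpt2 averaged 326 TPM in BAT and 5.81 TPM in brain. Crat, which links acetyl-CoA to carnitine, was the shuttle gene with the lowest liver level besides Cpt1b, at 23.3 TPM (SD 4.69) against 447 TPM in BAT (SD 12.1).

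The acyl-CoA dehydrogenases, which open each turn of the spiral for very long (Acadvl), long (Acadl), medium (Acadm) and short (Acads) chains, had a median of 2304 TPM in BAT, 269 TPM in IAT, 209.5 TPM in liver and 48.0 TPM in brain. All 4 were called higher in BAT than in each other tissue. Acads was the least abundant of the 4 in every tissue, at 465 TPM in BAT and 8.47 TPM in brain.

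The members with the highest levels came from the later steps. In BAT the leading gene was Hadhb, the thiolase subunit of the mitochondrial trifunctional protein, at 4350, 4451 and 4047 TPM. Acaa2, the thiolase for medium chains, followed at 3928, 4468 and 3796 TPM, and Etfb, the smaller subunit of the electron transfer flavoprotein, at 3114, 3896 and 3847 TPM. Hadhb and Acaa2 overlapped between libraries, as did Acaa2 and Etfb, and Etfb lay below Hadhb in every library.

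In liver the leading gene was Acaa2, at 889, 1105 and 1019 TPM, and no other member reached its lowest library. It was followed by Acaa1b, a peroxisomal thiolase, at 689, 746 and 634 TPM, and by Etfb at 619, 661 and 629 TPM; Acaa1b lay above Etfb in each library, though its lowest library lay within the range of Etfb. In IAT the leading genes were Etfb (832, 708 and 591 TPM), Hadhb (604, 390 and 345 TPM) and Ech1 (499, 387 and 370 TPM). In brain the same 3 genes led at far lower levels, with Hadhb at 117, 115 and 102 TPM, Etfb at 83.7, 85.4 and 98.2 TPM, and Ech1 at 79.9, 58.6 and 79.4 TPM. Ech1 encodes a dienoyl-CoA isomerase for unsaturated chains.

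Hadha and Hadhb encode the 2 subunits of the trifunctional protein, which performs the last 3 steps on long chains, and lie head to head on chromosome 5. Hadha (gene 97212) spans 30119423 to 30154980 on GRCm38.p6 and Hadhb (gene 231086) spans 30155253 to 30184593, so their RefSeq starts are separated by 272 bases (chr5:30154981-30155252, 60.3% G or C). That stretch is shown because both genes are read outward from it, and it is given 5′ to 3′ on the strand of Hadhb, all in lower case since no part is singled out.
Hadha and Hadhb: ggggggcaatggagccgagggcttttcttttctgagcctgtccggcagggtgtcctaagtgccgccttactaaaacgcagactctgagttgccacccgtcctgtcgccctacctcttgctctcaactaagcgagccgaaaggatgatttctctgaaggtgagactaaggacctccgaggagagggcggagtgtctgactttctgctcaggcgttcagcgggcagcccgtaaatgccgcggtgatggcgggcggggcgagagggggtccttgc

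The ratio of the 2 transcripts nonetheless differed between tissues. Hadhb to Hadha in TPM stood at 2.87, 3.34 and 3.14 in the WT BAT libraries, 1.96, 1.86 and 1.78 in IAT, 1.83, 1.85 and 1.65 in brain, and 0.957, 0.993 and 0.984 in liver. BAT lay above all other libraries and liver below them, and IAT and brain overlapped. The difference among tissues had an exact permutation p of 0.000260 over 15400 partitions of the 12 libraries, where the smallest p possible is 6.49e-05. Etfb to Etfa, the 2 subunits of the electron transfer flavoprotein, averaged 2.01 in IAT (SD 0.0276), 1.78 in BAT (SD 0.280), 1.63 in brain (SD 0.342) and 1.62 in liver (SD 0.127, n = 3 each), with an exact permutation p of 0.246 over the same partitions. These ratios were chosen after their values were seen. In the KO libraries Hadhb to Hadha averaged 3.17 in BAT, 1.93 in IAT, 2.04 in brain and 0.940 in liver, so BAT was again the highest and liver the lowest.

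**Figure D2:**
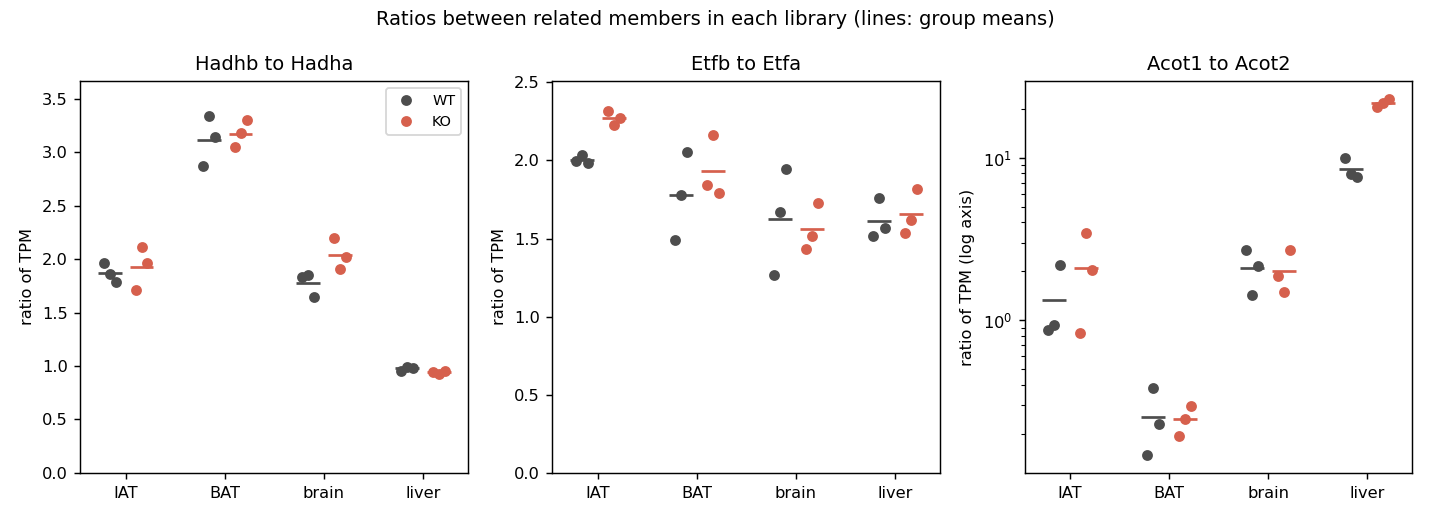
Ratio of TPM between related members in each library, by tissue, with WT in grey and KO in red and lines at the group means; the Acot1 to Acot2 axis is a log axis. Hadhb to Hadha lies near 3 in BAT and near 1 in liver in both genotypes, Etfb to Etfa overlaps across BAT, brain and liver, and Acot1 to Acot2 in liver lies higher in every KO library than in every WT library.

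The microsomal genes and part of the peroxisomal genes were highest in liver. Ehhadh, the peroxisomal bifunctional enzyme, averaged 238 TPM in WT liver (SD 24.5) against 44.5 TPM in BAT (SD 5.41). Acaa1b averaged 690 TPM in liver (SD 55.9), 60.2 TPM in BAT, 39.1 TPM in IAT and 0.973 TPM in brain, whereas its near-copy Acaa1a ranged only from 63.6 TPM in brain to 161 TPM in BAT. Of the stretches of 50 bases in Acaa1b transcripts, 35.5% also occur in Acaa1a, so reads of the pair were partly divided by the authors' estimation. Pex11a, which helps peroxisomes divide, averaged 69.2 TPM in BAT and 62.3 TPM in liver, and their libraries overlapped. On normalised counts liver was instead called above BAT for Pex11a (a log2 difference of 0.58, SE 0.20, edgeR adjusted p = 0.0231), as it was for Acaa1a (0.56, SE 0.10, edgeR adjusted p = 0.000362) and Eci2 (0.53, SE 0.09, edgeR adjusted p = 0.000375), so the order of these 3 depends on the scale. Cyp4a10 stood at 288, 245 and 477 TPM and Cyp4a14 at 240, 222 and 529 TPM in the WT liver libraries. Outside liver both stayed at or under 0.60 TPM in WT, and in brain both were listed at 0 in all 6 libraries. Cyp4a10 shares 29.8% of such stretches with Cyp4a31 and Cyp4a32.

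Among the thioesterases, which release free fatty acids from CoA, Acot3 averaged 99.8 TPM in liver (SD 9.98) against 2.97 TPM in brain and under 1 TPM in both fats. Acot2, the mitochondrial form, was highest in BAT at 34.9 TPM (SD 5.46). Acot1, the cytosolic form, was highest in liver at 38.6 TPM (SD 23.0), where replicate 3 stood at 64.6 TPM and replicates 1 and 2 at 30.2 and 21.0 TPM. Acot1 shares 32.4% and Acot2 27.6% of their stretches of 50 bases with other genes of the table, mainly each other.

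Bdh1, which interconverts the 2 main ketone bodies, averaged 76.9 TPM in liver (SD 8.79), 39.3 TPM in brain (SD 1.01), 1.10 TPM in IAT (SD 0.178) and 0.113 TPM in BAT (SD 0.102), and each step of that order was called in edgeR. Ppara (gene 19013, chromosome 15, 85734910 to 85806851) stood at 67.8, 74.4 and 50.5 TPM in BAT, 50.2, 55.3 and 57.1 TPM in liver, 4.61, 3.21 and 2.23 TPM in IAT, and 3.00, 2.49 and 2.87 TPM in brain. BAT and liver overlapped and were not called different (liver against BAT, a log2 difference of 0.49, SE 0.21, edgeR adjusted p = 0.0573). IAT and brain overlapped in TPM as well, while on normalised counts brain lay 1.02 below IAT (SE 0.23, edgeR adjusted p = 0.00142). Pdk4, a kinase that shuts off glucose oxidation, averaged 532 TPM in BAT (SD 62.0). Fgf21, a fasting hormone, averaged 2.94 TPM in liver (SD 0.886), and Vnn1, a pantetheinase, averaged 33.4 TPM there (SD 5.38).

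The promoters of the members were searched for the element that PPAR-alpha and RXR bind, 2 copies of AGGTCA in 1 direction with any 1 base between them, on both strands of the 300 bases from 250 before to 50 after each RefSeq start (GRCm38.p6). Of the 34 members, 27 had a promoter entry, while Cpt1b, Crat, Acaa2, Decr1, Cyp4a10, Cyp4a14 and Vnn1 had none. An exact match was found in 0 of the 27 and in 0.0481% of all 27025 genes. With up to 2 mismatches, 2 of 27 members (7.41%) and 4.4% of all genes held a match. The 2 are shown with 8 bases on each side, the match in capitals, 5′ to 3′ on the gene's strand.
Etfa, chr9:55512300-55512328: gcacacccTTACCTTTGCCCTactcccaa
Slc25a20, chr9:108662134-108662162: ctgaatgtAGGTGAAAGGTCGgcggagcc
The Etfa match lies on the opposite strand, upstream of the start, and the Slc25a20 match begins at position 7 from the start. A match is a run of letters and does not show binding.

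Loss of Prxl2a was then compared with WT in each tissue, on counts, with each tissue fitted alone. No member passed edgeR's test at an adjusted p under 0.05 in any tissue, and the share of all genes called was 1.11% in liver, 0.54% in BAT, 0.0487% in brain and 0% in IAT. At an unadjusted p under 0.05 the count was 1 of 30 members tested in IAT (15.8% of all genes), 8 of 29 in BAT (18.5%), 1 of 29 in brain (6.58%) and 11 of 34 in liver (16.1%). DESeq2 called 1 member in IAT, Bdh1 (6.28% of all genes), and none in the other tissues, and limma on log2(TPM + 1) called none in any tissue. Genes with too few counts were not tested: Cyp4a10, Cyp4a14 and Fgf21 in IAT, BAT and brain, Acot3 in IAT and BAT, Bdh1 in BAT, and Acaa1b and Vnn1 in brain.

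The precision differed widely between tissues. The 95% interval of the change lay within 2-fold either way for 28 of 29 members in brain, 24 of 29 in BAT, 29 of 34 in liver and 10 of 30 in IAT. Within 1.5-fold the counts were 22 in brain, 21 in BAT, 24 in liver and 0 in IAT. For the other 20 IAT members the interval reached beyond 2-fold, so a change of that size is not excluded there.

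**Figure D3:**
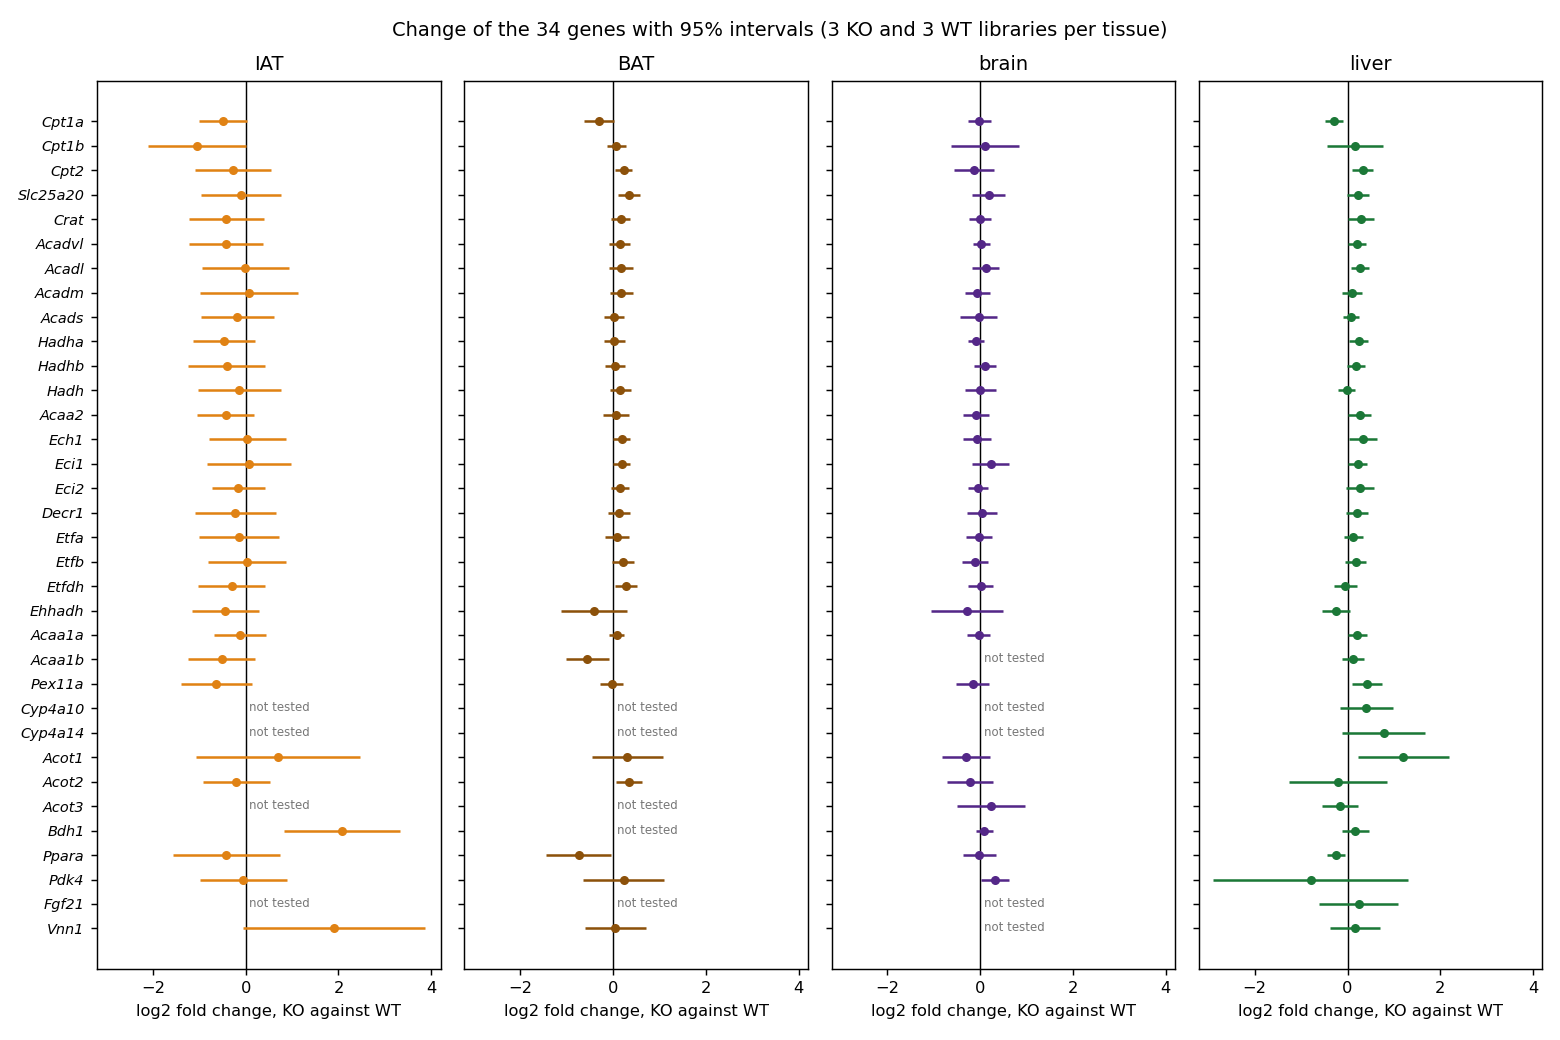
Log2 fold change of KO against WT for each member, 1 panel per tissue, with points at the edgeR estimates and bars at the 95% intervals of 3 KO against 3 WT libraries. The intervals are widest in IAT, and in BAT and liver most points lie slightly to the right of 0, with 24 of 29 and 26 of 34 above it.

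In liver, 26 of 34 members lay above 0 (49% of all genes) with a median log2 fold change of 0.19, against 0.00 over all genes. On normalised counts all 3 KO libraries lay above all 3 WT libraries for 12 members (11.4% of all genes). They lay below for 2, Cpt1a and Ppara (10.5% of all genes). In TPM only Cpt2, Acadl and Hadha lay above without overlap, and Cpt1a, Ppara, Hadh and Ehhadh lay below. The shares of all genes in TPM were not counted. On log2(TPM + 1), 25 of 34 lay above 0 with a median of 0.08, when the median over all genes was -0.08 and 31.9% of all genes lay above 0.

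The liver member with the smallest p was Cpt1a, at 387, 354 and 404 CPM in WT and 310, 317 and 309 CPM in KO. All KO libraries lay below all WT libraries, and the log2 fold change was -0.30 (SE 0.09), which missed the threshold (edgeR adjusted p = 0.144). Cpt2, the inner partner of Cpt1a, stood at 97.5, 83.5 and 101 CPM in WT and 120, 108 and 128 CPM in KO. It lay above WT in every KO library, at 0.33 (SE 0.10), and did not pass (edgeR adjusted p = 0.152). Acadl stood at 219.8, 219 and 215 CPM in WT and 246, 282 and 259.8 CPM in KO, at 0.26 (SE 0.09), and did not pass (edgeR adjusted p = 0.178). The 2 enzymes on either side of the mitochondrial membrane thus stood on opposite sides of WT, each by less than the test could call.

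By role, all 4 dehydrogenases (median 0.15) and all 4 enzymes for unsaturated chains (median 0.25) lay above 0 in liver, as did 3 of the 4 genes of the later steps (median 0.22, Hadh at -0.02). Of the 3 flavoprotein genes, 2 lay above 0, the exception being Etfdh at -0.05. Among the peroxisomal genes Pex11a stood at 82.6, 80.0 and 104 CPM in WT and 112, 142 and 105 CPM in KO, without overlap, at 0.42 (SE 0.14, edgeR adjusted p = 0.184). Ehhadh, also a classical PPAR-alpha target, was on the other side, at -0.25. Ppara itself stood at 247, 259 and 272 CPM in WT and 227, 229 and 206 CPM in KO, at -0.24 (SE 0.09, edgeR adjusted p = 0.222).

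Some liver members varied widely between libraries of 1 genotype. Cyp4a14 stood at 381, 329 and 816 CPM in WT and 476, 1242 and 911 CPM in KO. Acot1 stood at 27.9, 17.8 and 57.3 CPM in WT and 43.6, 116 and 76.9 CPM in KO, with a log2 fold change of 1.20 (SE 0.43, edgeR adjusted p = 0.225), the largest of the 34, which was 0.81 without KO replicate 2 and 1.79 without WT replicate 3. Pdk4 stood at 12.3, 9.27 and 116 CPM in WT and 6.81, 47.0 and 25.8 CPM in KO. In each of these 3 genes WT replicate 3 was the highest WT library and KO replicate 2 the highest KO library, as the plot of liver libraries shows. KO replicate 2 was the highest of the 6 liver libraries for 20 of the 34 members (20.2% of all genes).

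Genes that respond to feeding also differed between these libraries. Fasn, the fatty acid synthase, stood at 1380, 1098 and 789 CPM in the WT liver libraries and 1406, 496 and 459 CPM in KO. Scd1, a desaturase that rises with feeding, stood at 12639, 9423 and 7906 CPM in WT and 9772, 3960 and 3556 CPM in KO. Both were lowest in KO replicates 2 and 3 and, within WT, in replicate 3. These 2 genes were examples from a list of 10 feeding-responsive genes, of which 5 lay above and 5 below 0 with none called, and whose sum was 7372, 5667 and 6176 TPM in WT and 5707, 4758 and 4209 TPM in KO, lowest in replicate 2 within WT. The clock gene Nr1d1 stood at 14.6, 11.6 and 10.8 CPM in WT and 7.90, 6.10 and 7.07 CPM in KO (log2 fold change -0.82, SE 0.15, edgeR adjusted p = 0.0467). It was an example from a list of 12 clock genes, of which 11 were tested in liver. Of these, 6 lay above and 5 below 0, with a median log2 fold change of 0.01. Nr1d1 was 1 of 2 clock genes called, where 1.11% of all genes tested in liver were. The part of feeding state and time of day in the liver values was not tested.

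**Figure D4:**
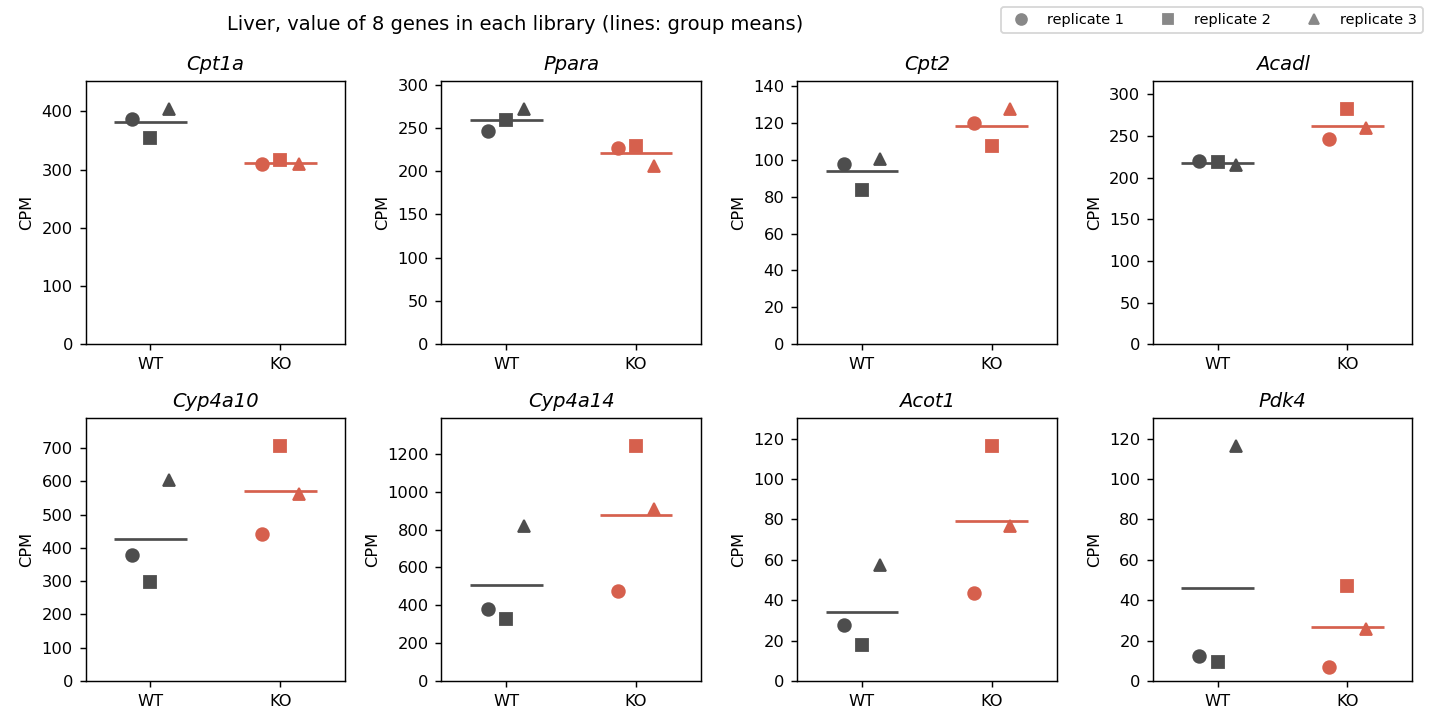
CPM of 8 members in each liver library, with WT in grey, KO in red, a marker shape for each replicate number and lines at the group means; each axis starts at 0. Cpt1a and Ppara lie lower and Cpt2 and Acadl higher in all 3 KO libraries, while Cyp4a10, Cyp4a14, Acot1 and Pdk4 spread widely within both genotypes.

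In BAT, 24 of 29 members lay above 0 (49% of all genes), with a median log2 fold change of 0.15 against -0.01 over all genes. On log2(TPM + 1) the count was 15 of 29, with a median of 0.03, when 33.4% of all genes lay above 0 and their median was -0.09. The number of BAT members above 0 and the size of their median thus depended on the scale. The members' median stayed 0.12 to 0.15 above the median of all genes. On normalised counts all 3 KO libraries lay above all WT libraries for 10 members tested (15.1% of all genes) and below for none (10.6% of all genes). In TPM, of the members tested, only Cpt2, Slc25a20 and Ech1 lay above without overlap, and Acaa1b lay below. The shares of all genes in TPM were not counted here either.

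The smallest p in BAT was that of Slc25a20, at 765, 885 and 765 CPM in WT and 960.3, 974 and 1137 CPM in KO. The libraries did not overlap, and the log2 fold change was 0.34 (SE 0.10), short of the threshold (edgeR adjusted p = 0.170). Cpt2 stood at 488, 518 and 466 CPM in WT and 568, 574 and 599 CPM in KO, again without overlap, at 0.23 (SE 0.08, edgeR adjusted p = 0.194). Acot2 stood at 43.1, 45.3 and 57.4 CPM in WT and 63.0, 65.0 and 58.9 CPM in KO, at 0.35 (SE 0.12, edgeR adjusted p = 0.198). The isoform that dominates BAT, Cpt1b, was at 0.07 (SE 0.09).

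The exceptions in BAT were Ppara, Acaa1b, Ehhadh, Cpt1a and Pex11a. Ppara stood at 328, 376 and 256 CPM in WT and 291, 121 and 169 CPM in KO, at -0.74 (SE 0.30, edgeR adjusted p = 0.252), with KO replicate 1 inside the WT range. Acaa1b stood at 56.8, 79.4 and 43.8 CPM in WT and 45.2, 37.7 and 40.7 CPM in KO, at -0.55 (SE 0.20, edgeR adjusted p = 0.217). Ehhadh was at -0.41 and Cpt1a at -0.29. So 3 of the 4 peroxisomal genes lay below 0, while all 15 tested genes of the dehydrogenases, later steps, unsaturated chains and flavoproteins lay above it on normalised counts. In TPM, 10 of those 15 had a higher KO than WT mean, and Hadha, Hadhb, Acads, Acaa2 and Etfa did not.

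In IAT, 7 of 30 members lay above 0 (51.7% of all genes), with a median log2 fold change of -0.19 against 0.02 over all genes. KO replicate 1 was the lowest of the 6 libraries for 27 of the 30 members (32.3% of all genes), and KO replicate 2 was the highest for 16 (19.0% of all genes). Over the 20 mitochondrial enzymes, the median log2 ratio to the WT mean was 0.26, -0.07 and -0.22 in the WT libraries and -0.94, 0.34 and -0.28 in the KO libraries. The KO libraries thus covered the WT range and went beyond it on both sides. Adipocyte markers summed to 39887, 30604 and 25209 TPM in WT and to 19456, 47398 and 33351 TPM in KO, so the lowest and the highest library were the same by both measures. Without KO replicate 3 the median was -0.17 with 8 of 31 members above 0, none were called, and Bdh1 alone had an unadjusted p under 0.05 (7.17% of all genes). Fewer fat cells in a sample and less RNA of these genes per fat cell cannot be told apart in bulk tissue. Without KO replicates 1 and 3, the libraries rich in lymphocyte transcripts, the median was 0.28 with 24 of 31 members above 0, an estimate in which the spread of the single KO library is taken to be that of WT. Without WT replicates 1 and 2, which leaves 1 WT library with its spread taken from KO, 15 of 31 lay above 0.

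**Figure D5:**
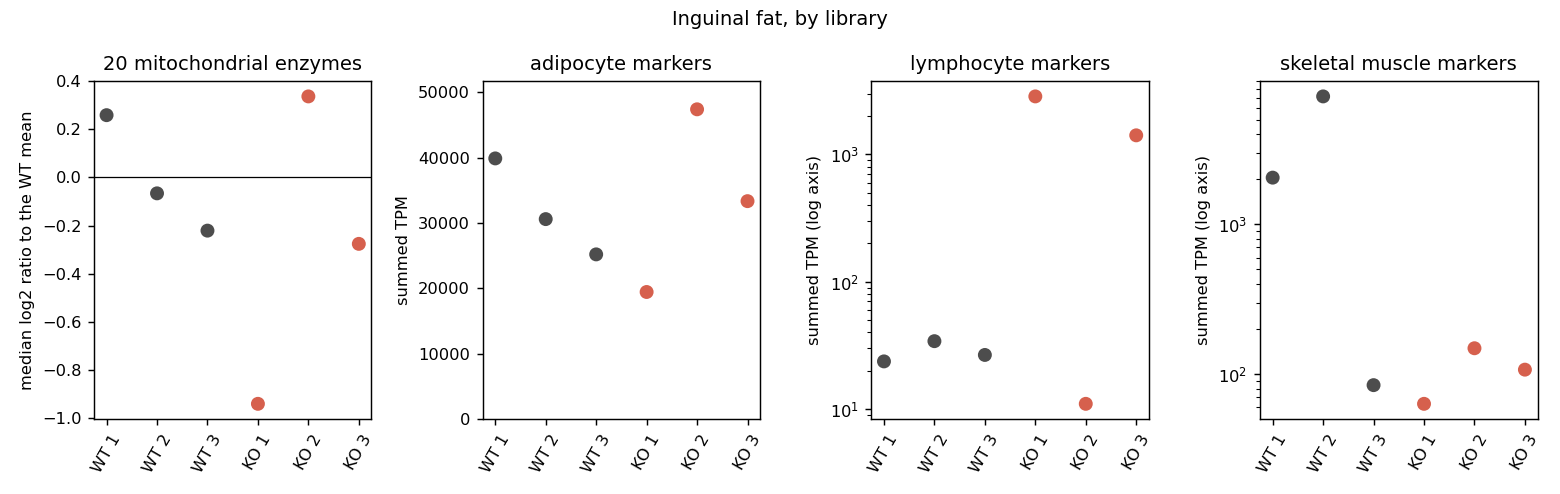
Inguinal fat by library, WT in grey and KO in red: the median log2 ratio of 20 mitochondrial enzymes to the WT mean, and the summed TPM of adipocyte, lymphocyte and skeletal muscle markers, the last 2 on log axes. KO replicate 1 has the lowest enzyme level, the lowest adipocyte sum and the highest lymphocyte sum, and KO replicate 2 has the highest enzyme level and adipocyte sum.

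The IAT members with the smallest p were Bdh1, Cpt1b and Vnn1. Bdh1 stood at 2.49, 2.19 and 1.79 CPM in WT and 14.4, 3.55 and 9.20 CPM in KO, the only member tested in IAT without overlap between the groups (9.03% of all genes lay higher in KO without overlap and 9.53% lower). Since replicate 3 lay between the other KO libraries for all 30 members above, it adds nothing to that count. The log2 fold change of Bdh1 was 2.07 (SE 0.52), short of the threshold (edgeR adjusted p = 0.225). It passed with DESeq2 (adjusted p = 0.00619), when all 24 libraries shared 1 edgeR fit (adjusted p = 0.00165) and without KO replicate 2 (edgeR adjusted p = 0.00780), and did not pass under the other alternatives. Those settings called 6.28%, 15.9% and 12.1% of all genes in IAT, where the main test called none, and each counts KO replicate 3 as a separate library. Without KO replicate 3 the estimate was again 2.07 (edgeR adjusted p = 0.669). The high libraries of Bdh1 were KO replicates 1 and 3, those rich in lymphocyte transcripts, and their part in the change was not tested. With both left out the log2 fold change was 0.72 (edgeR adjusted p = 0.683).

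Cpt1b stood at 10.4, 11.2 and 3.53 CPM in WT and 4.21, 3.93 and 3.97 CPM in KO, at -1.05 (SE 0.44, edgeR adjusted p = 0.318). Without WT replicates 1 and 2, the libraries rich in muscle transcripts, the value was 0.15 (edgeR adjusted p = 0.954), with 1 WT library left and the spread taken from KO. Vnn1 stood at 3.93, 5.02 and 4.13 CPM in WT and 2.35, 31.8 and 14.8 CPM in KO, at 1.90 (SE 0.81, edgeR adjusted p = 0.325), with KO replicate 1 below WT and the other KO libraries above. Without KO replicate 2 the Vnn1 value was 0.98. With all 24 libraries in 1 fit, Cpt1b (adjusted p = 0.0197) and Vnn1 (adjusted p = 0.0226) passed in edgeR. That setting called 15.9% of all genes in IAT and counts KO replicate 3 as a separate library.

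Brain showed the least difference. Its libraries differed in the regions and cells they held. Striatum markers summed to 1474, 1222 and 271 TPM in WT and 196.5, 1002 and 242.1 TPM in KO. Oligodendrocyte markers summed to 4834, 6298 and 2406 TPM in WT and 4989, 3980 and 5954 TPM in KO. Their part in the brain values was not tested. Of 29 members, 11 lay above 0 (49.6% of all genes), with a median log2 fold change of -0.02 against 0.00 over all genes, and all lay between -0.31 and 0.32. No member lay higher in all KO libraries (6.78% of all genes) and 1 lay lower, Hadha (5.78% of all genes). The smallest p was that of Pdk4, at 13.4, 11.7 and 11.5 CPM in WT and 15.9, 13.3 and 16.6 CPM in KO, at 0.32 (SE 0.13, edgeR adjusted p = 0.749). The lowest KO library lay just inside the WT range. Acot1 stood at 8.29, 5.35 and 8.72 CPM in WT and 5.35, 5.79 and 6.92 CPM in KO, at -0.31 (SE 0.22, edgeR adjusted p = 0.796). Eci1, an isomerase for unsaturated chains, stood at 11.3, 8.94 and 10.7 CPM in WT and 10.01, 11.6 and 14.5 CPM in KO, at 0.22 (SE 0.17, edgeR adjusted p = 0.815). Bdh1, the ketone body enzyme with a high level in brain, stood at 47.8, 47.5 and 48.2 CPM in WT and 51.8, 48.0 and 52.5 CPM in KO, at 0.08 (SE 0.08).

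Whether the effect of the knockout differed between tissues was tested in 1 edgeR fit of the 24 libraries. No member was called, against 0.421% of all 16169 genes tested. The smallest value was that of Bdh1 (interaction adjusted p = 0.0693, edgeR), whose log2 fold change was 2.07 in IAT, 0.08 in brain and 0.17 in liver. Pex11a followed, at 0.42 in liver, -0.03 in BAT, -0.17 in brain and -0.63 in IAT (interaction adjusted p = 0.196, edgeR). DESeq2 called 1 member, Bdh1 (adjusted p = 0.00213), and 6.5% of all genes. Without IAT KO replicate 2 edgeR called 7 members (Bdh1, Cpt2, Acaa2, Crat, Eci2, Pex11a and Hadha) and 18.1% of all genes, a share near that of the members. Without IAT KO replicate 1 it called Vnn1 (0.355% of all genes), and without IAT WT replicate 3 it called Cpt1b (0.456% of all genes). Without IAT KO replicate 3 it called none, with Bdh1 at an adjusted p of 0.162. With BAT, brain and liver only, it called none.

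A further 77 genes of the pathway were read from the same tests, in lists for fatty acid uptake and activation, other peroxisomal steps, other mitochondrial steps, ketone bodies, microsomal oxidation, receptors and coactivators, and other PPAR targets. In liver 1 of 71 tested was called (1.11% of all genes), against 0 of 68 for IAT, 0 of 67 for BAT and 0 of 67 for brain. At an unadjusted p under 0.05 the counts were 15 in liver (16.1% of all genes), 4 in IAT (15.8%), 19 in BAT (18.5%) and 7 in brain (6.58%). The called gene was Tysnd1, the peroxisomal protease that processes oxidation enzymes, at 37.1, 38.6 and 37.7 CPM in WT and 57.4, 49.9 and 51.3 CPM in KO, a log2 rise of 0.48 (SE 0.08, edgeR adjusted p = 0.0377). It did not pass with each liver library left out in turn (edgeR adjusted p 0.0623 to 0.118), with the limma fits on TPM (0.103 and 0.106) or with all 24 libraries in 1 fit (0.283), and it passed with DESeq2 (adjusted p = 0.00217). In liver 13 of the 18 other peroxisomal genes lay below 0, with a median log2 fold change of -0.06, so most of its list lay on the other side. Also in liver, and named after their values were seen, the fatty acid transporter Cd36 was at -1.44 (SE 0.28, edgeR adjusted p = 0.0511) and the fatty acid binding protein Fabp1 at 0.77 (SE 0.19, edgeR adjusted p = 0.0970). Both were without overlap, Cd36 lower in KO (10.5% of all genes) and Fabp1 higher (11.4%), and neither passed.

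In BAT 38 of the 67 tested lay above 0 on normalised counts (49% of all genes), with a median log2 fold change of 0.04. The other PPAR targets had the highest median of the lists, with 9 of 11 above 0 and a median of 0.28. Among the other peroxisomal genes 7 of 18 lay above 0, with a median of -0.02. Plin2, which coats lipid droplets, stood at 691, 514 and 579 CPM in WT and 846, 992 and 1076 CPM in KO, at 0.70 (SE 0.14, edgeR adjusted p = 0.0786). Ucp3, a mitochondrial uncoupling protein, stood at 99.6, 75.4 and 72.4 CPM in WT and 148, 151 and 117 CPM in KO, at 0.74 (SE 0.15, edgeR adjusted p = 0.0848). Both lay higher in KO without overlap (15.1% of all genes), and neither passed. Both were named for their small p. In IAT Bdh2 stood at -1.69 (SE 0.26, edgeR adjusted p = 0.165). In brain Pnpla2, the first lipase of triglyceride breakdown, was at 0.39 (SE 0.12) and the coactivator Ppargc1a at 0.28 (SE 0.08), both with an edgeR adjusted p of 0.718.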

How the data were processed

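The authors deposited 1 table with expected counts and TPM per gene and library. Per the submitters' processing notes, the tools named were RSEM 1.3.1, Bowtie2 2.3.4.3 and DESeq2 1.4.5, and the build was GRCm38.p6; strand handling is not given in the sources used here. The deposited expected counts were rounded to whole numbers. The authors' TPM served for levels. Another 48 per-sample columns were not used. Low genes were removed with filterByExpr, TMM normalisation was applied, and edgeR 4.0.16 (R 4.3.3) quasi-likelihood F-tests were run per tissue, on the interaction of tissue and genotype, and on the WT libraries. P-values were adjusted over all genes by Benjamini-Hochberg and called under 0.05. The code was tested on simulated data. Alternatives used DESeq2 1.42.0, limma 3.58.1 on log2(TPM + 1) or log2(TPM + 0.1) of genes averaging 1 TPM or more, other filters and scaling, left-out libraries and a replicate block.

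Replicates correlated at 0.929 to 0.996 and no pair of replicates within a group agreed within counting error. Pairs across groups were not checked in this way. IAT KO replicate 3 matched an equal mix of KO replicates 1 and 2, over genes with at least 30 counts in those 2, and some IAT values are also given without it. Gene IDs matched RefSeq for 18958 genes (99.7%). Members and lists were chosen with earlier results of these data known. Values in every library are given for called members, otherwise for the 3 with the smallest p per tissue, for the 3 highest WT members per tissue, and for Cpt1a, Cpt1b and Ppara; other members appear as examples of their role. Near-identical genes (over 10% of 50-base stretches shared: Acaa1a, Acaa1b, Acot1, Acot2, Cyp4a10) are uncertain. A gene that this rule would name among the pathway lists is not reported here.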

Additional observations from a re-analysis of the deposited data

Results flagged for a closer look

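Hadha was singled out because its KO libraries lay on opposite sides of WT in liver and brain. In liver it stood at 295, 304 and 326 CPM in WT and 352, 391 and 357 CPM in KO, so every KO library was higher (11.4% of all genes). In brain it stood at 65.6, 66.2 and 64.1 CPM in WT and 63.2, 59.9 and 60.8 CPM in KO, so every KO library was lower (5.78% of all genes). The share of all genes with both was not counted. The log2 fold changes were 0.24 (SE 0.09) and -0.09 (SE 0.07). The difference among the 4 tissues did not pass edgeR's interaction test (adjusted p = 0.2751), and liver against brain alone was not tested.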

How the results depend on the processing

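In BAT, brain and liver no member was called under any alternative, and all WT members tested were called across tissues under every one. In IAT 1 member was called with DESeq2, 4 with all 24 libraries in 1 fit (Cpt1a, Cpt1b, Bdh1 and Vnn1) and 0 to 2 with each library left out, the 2 being Acaa1b and Bdh1 without KO replicate 2. These settings called 6.28%, 15.9% and, without KO replicate 2, 12.1% of all IAT genes, so the members' shares were below those of all genes. The interaction called 1 member with DESeq2 and 0 to 7 with each library left out, the 7 being without IAT KO replicate 2, where 18.1% of all genes were called. Fits without IAT KO replicate 2 keep replicates 1 and 3, which were not shown to be separate samples. IAT members above 0 numbered 2 to 17 with each library left out, 24 without KO replicates 1 and 3 and 15 without WT replicates 1 and 2. The IAT median ran from -0.562 to 0.039 with each library left out, being 0.039 without KO replicate 1, and was 0.28 without KO replicates 1 and 3. Cpt1b in IAT went to 0.15 without WT replicates 1 and 2. In brain 10 to 18 members lay above 0 with each library left out, and the median ran from -0.063 to 0.025, being 0.013 without WT replicate 1 and 0.025 without KO replicate 1. On log2(TPM + 1) and log2(TPM + 0.1) alike, 15 BAT members lay above 0, 12 members were called higher in liver than IAT, 11 higher in IAT than liver and 1 higher in brain than liver. With each library left out, 1 to 3 were called higher in IAT than liver. The causes were not tested.

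Same-numbered samples were not paired in the main fit. Of 30 same-numbered pairs, 5 had a correlation over 0.1. Between KO and WT of a tissue, 7 of 24 samples correlated best with their own number. Between WT tissues, 6 of 6 samples did so for BAT and brain (correlations 0.023 to 0.06). For IAT and liver 5 of 6 did (0.044 to 0.213), and for the other pairs of tissues 0 to 2 of 6. These values do not settle whether tissues share mice. With the replicate block no member was called for the knockout in any tissue, 3 IAT members lay above 0 instead of 7, and Tysnd1 in liver had an edgeR adjusted p of 0.0534. Leaving out the 3 WT fat libraries rich in muscle transcripts, chosen after seeing the data, moved the counts between tissues by at most a few genes: 28 members instead of 30 were called higher in IAT than brain, 28 instead of 29 higher in BAT than brain, 3 instead of 2 the other way, and 14 instead of 13 higher in liver than BAT. Hadhb to Hadha, BAT over liver, was 1.67 on the log2 scale from TPM and from counts, and 1.62 to 1.73 with each library left out, both also chosen after seeing the data. Levels of low genes such as Fgf21, at 17 to 41 counts in liver, are limited by depth.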

Other observations

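Acot1 and Acot2 kept a tight ratio within each genotype in liver although both genes varied between libraries. Acot1 to Acot2 in TPM stood at 9.92, 7.97 and 7.58 in WT and 20.5, 21.5 and 23.0 in KO. The KO libraries lay above WT without overlap, at 2.56-fold. The exact two-sided permutation p was 0.1, the smallest that 20 splits of 6 libraries allow. Any ratio without overlap gives that p, so it adds nothing to the lack of overlap. The counts behind it were 483, 348 and 985 for Acot1 and 74, 67 and 198 for Acot2 in WT, and 763, 2024 and 1359 for Acot1 and 57, 143 and 90 for Acot2 in KO. The means for WT and KO were 0.254 and 0.246 in BAT, 2.09 and 2.01 in brain, and 1.33 and 2.10 in IAT. This ratio was chosen after its values were seen, and the genes share sequence, so the authors' division of reads between them bears on it; its part was not tested.

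Etfb to Etfa in IAT stood at 1.996, 2.04 and 1.99 in WT and 2.31, 2.23 and 2.27 in KO (replicate 3 not shown to be separate), also chosen after the values were seen and not tested. Fgf21, too low to test in BAT, stood there at 0.0775, 0 and 0 CPM in WT and 0.412, 1.301 and 0.576 CPM in KO, with at most 16 counts in a library.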
